A study of Mus musculus with 12 samples.

Results

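The contractile smooth muscle genes were 10 of the 56205 genes in a table of raw counts from mouse liver. They were found by symbol from a given list, namely Acta2, Actg2, Myh11, Myl9, Mylk, Tpm2, Cald1, Smtn, Tagln and Lmod1, and all 10 were among the 13416 genes with enough counts to be tested. Whole livers of 12 ob/ob mice were profiled by poly(A) RNA-Seq, with 1 library per mouse, to compare 6 livers exposed to ethionine (Fibrotic) with 6 livers of untreated mice (FLO). Both groups were ob/ob (B6.Cg-Lep ob/J), which lack leptin and become obese, and both ate standard chow. The mice were described as males of 8 to 10 weeks at the start of treatment. The Fibrotic mice also received DL-ethionine, an ethyl analogue of methionine that is toxic to the liver. Its route and amount are labelled both as drinking water with 0.165% DL-ethionine, over 2 weeks, and as injected ethionine at 0.15%, and the study's methods give another duration, so the exposure is not settled by these sources. The labels name no other agent or allele, and a lean or ethionine-treated wild-type group was not analysed here. Fibrotic is the name in the sample titles, and fibrosis was not scored here. In ob/ob mice given ethionine, the study observed no change of Col1a1 or of Zfp469.

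Smooth muscle shortens when calcium-bound calmodulin switches on myosin light chain kinase, which phosphorylates the regulatory light chain so that smooth muscle myosin can pull on actin filaments. A phosphatase reverses this step, and cyclic GMP relaxes the muscle. Serum response factor (SRF) drives many of these genes by binding the CArG box, a short element of CC, a run of A or T, and GG in their promoters. In liver the contractile genes mark the muscle cells of arteries and portal veins, and several, Acta2 and Tagln among them, are also made by activated hepatic stellate cells and portal myofibroblasts. In a bulk library, fewer cells of a type and less RNA per cell cannot be told apart.

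The promoter sequences are shown because the genes are known as SRF targets and differed among themselves in how far they moved between the groups. RefSeq promoter windows of 300 bases, from 250 before to 50 after each start (GRCm38.p6), were matched for 7 of the 10 genes, in 8 windows. No entry was found for Tagln, Myh11 and Actg2. The motif searched was CC, 6 bases that are each A or T, and GG, 10 bases in all. It reads the same way on both strands. A match was in 1 of the 8 windows, that of Myl9, against 1.63% of all 32851 windows. With up to 1 of the 6 core bases changed to C or G, matches were in 2 of the 8, those of Myl9 and Acta2, against 9.98% of all windows. A match is a description of the letters and not a measured binding site. The upstream stretch of Myl9 that holds both of its matches (chr2:156775214-156775407, plus strand, GRCm38.p6, upstream of the gene) and the surroundings of the matches in Acta2 (chr19:34255438-34255467 and chr19:34255388-34255417, minus strand, in its first exon in GENCODE M21) are given with the elements in capitals.
Myl9: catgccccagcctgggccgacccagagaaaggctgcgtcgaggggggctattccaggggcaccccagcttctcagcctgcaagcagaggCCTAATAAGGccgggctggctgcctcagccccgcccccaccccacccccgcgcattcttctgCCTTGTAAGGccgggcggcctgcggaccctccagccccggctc
Acta2, distal: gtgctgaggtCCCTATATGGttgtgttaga
Acta2, proximal: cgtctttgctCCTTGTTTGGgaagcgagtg
In Myl9 the unchanged element ran from 161 to 152 bases before the start on which its window was set. The changed element ran from 99 to 90 bases before it. This start lies inside the gene as annotated in GENCODE M21, downstream of its first annotated start. In Acta2 the elements ran from 84 to 75 and from 34 to 25 bases before the start on which its window was set. The windows of Mylk, Tpm2, Smtn, Lmod1 and Cald1 held none of these letters. Starts outside these windows were not searched, and the Mylk window lies inside the gene, downstream of its first start in GENCODE M21.

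Total counts ran from 17815568 to 20352675 in the Fibrotic and from 18275320 to 24814263 in the FLO libraries, and levels are given as CPM, the counts scaled to a fixed library size after TMM normalization. The tissue label was checked by albumin (Alb), which had 52922 ± 10280 CPM in Fibrotic and 65410 ± 5223 in FLO livers (SD, n = 6 each). Some libraries stood apart before any comparison. FLO 2 and FLO 3 held transcripts of skeletal muscle, with 723 and 2445 counts of Acta1 (skeletal muscle actin) and 267 and 877 counts of Ckm (muscle creatine kinase), against at most 9 and at most 2 in the other 10. Of a list of 16 skeletal and heart muscle genes, 14 and 15 had 10 or more counts in these libraries, against 1 to 6 in the others, and the summed level was 97.3 and 188 CPM against 4.53 to 12.9. FLO 3 also had 3773 counts of Xist, the RNA of the silenced X chromosome, and 4 counts of the Y-linked Ddx3y, which goes against the male sex given for the mice. Fibrotic 4 had the highest TMM factor, 1.20, against 0.913 to 1.11 in the others. Results are therefore also given without these libraries.

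Contractile smooth muscle genes were lower in the Fibrotic livers, to very different degrees. A gene was called when its adjusted p in edgeR was 0.01 or less and its absolute log2 fold change over 0.5. By this rule 4 of the 10 genes fell, namely Tpm2, Acta2, Myl9 and Mylk, where 14.0% of all tested genes were called lower. All 10 had a lower mean level in Fibrotic livers, as did 48.3% of all tested genes, and their median log2 fold change was -0.85 beside 0.03 over all genes. The groups did not overlap for 3 of the 10, Mylk, Myl9 and Tpm2, where 15.1% of all tested genes had every Fibrotic library below every FLO library. At an adjusted p of 0.05 with no limit on fold change, 7 of the 10 were lower, adding Tagln, Myh11 and Actg2, where 24.8% of all tested genes were. Smtn, Cald1 and Lmod1 passed neither rule.

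**Figure D1:**
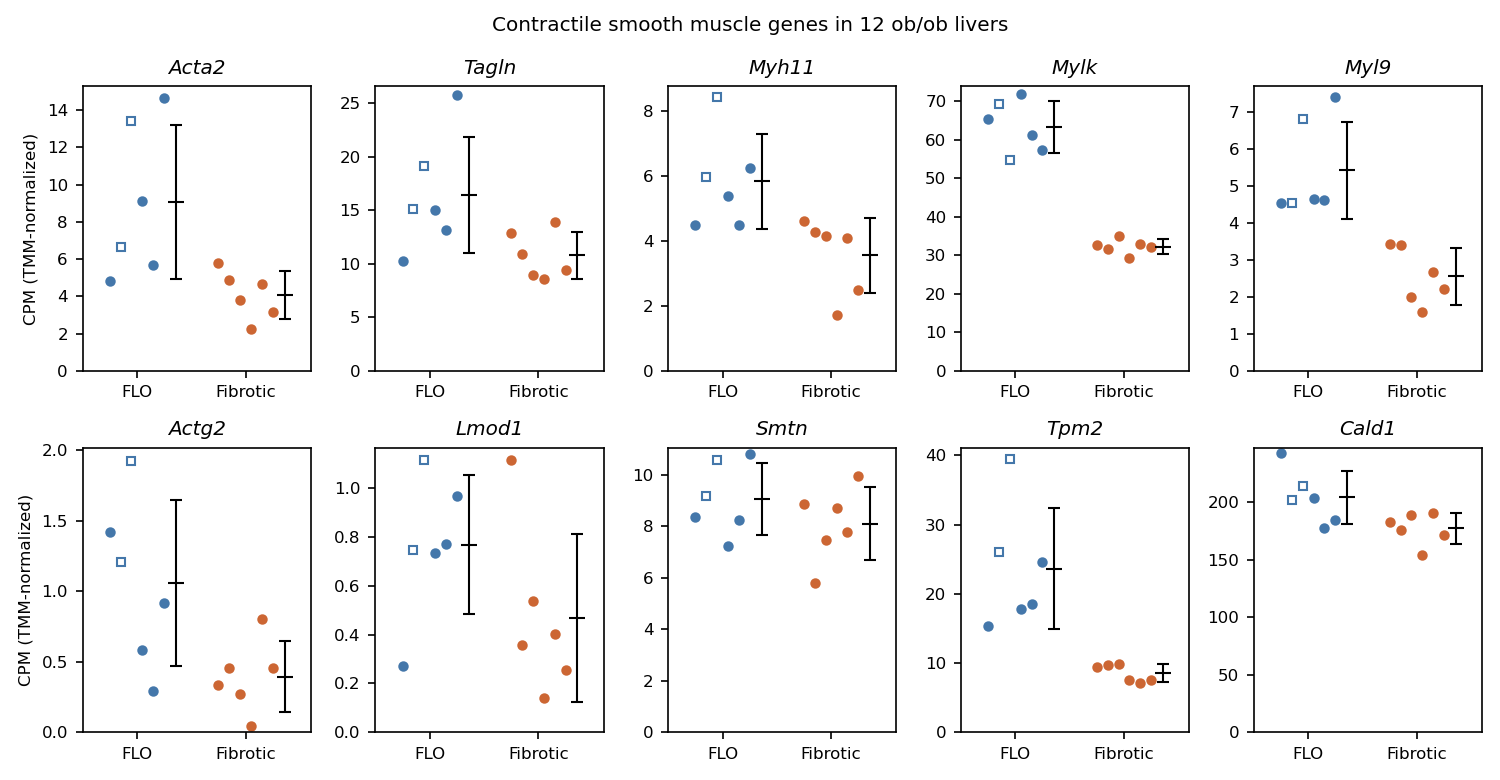
Level of each contractile smooth muscle gene in CPM (vertical axes, each from 0) in the 6 FLO (blue) and 6 Fibrotic (orange) livers, 1 point per library in replicate order, with the mean and SD in black; open squares are FLO 2 and FLO 3. Fibrotic points lie below all FLO points for Mylk, Myl9 and Tpm2 and mix with them for Smtn, Lmod1 and Cald1.

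Among the actins of the thin filament, Acta2 (ENSMUSG00000035783, chromosome 19) encodes smooth muscle alpha-actin, the usual marker of myofibroblasts. Its level was lowest at 2.25, median 4.25 and highest at 5.77 CPM in Fibrotic livers, and 4.81, 7.88 and 14.7 CPM in FLO livers. FLO 3 and FLO 6, at 13.4 and 14.7 CPM, stood above the rest, and 4 of 6 Fibrotic libraries lay below every FLO library. The level fell 2.22-fold (log2 fold change -1.15 ± 0.29 SE, adjusted p = 0.00446 in edgeR). This call was close to the limit: it was lost without FLO 3 (-1.01, adjusted p = 0.0109), without FLO 6 (-0.96, 0.0111), without Fibrotic 3 (-1.13, 0.0104), Fibrotic 4 (-1.02, 0.0108) or Fibrotic 6 (-1.08, 0.0123), and without both FLO 3 and FLO 6 it was -0.69 (adjusted p = 0.0372 in edgeR). Without FLO 2 and FLO 3 the log2 fold change was -1.07 (adjusted p = 0.0143 in edgeR), again not called.

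Actg2 (ENSMUSG00000059430, chromosome 6), the gamma-actin of visceral smooth muscle, had only 1 to 45 counts per library. Its level was 0.0468, 0.398 and 0.806 CPM (lowest, median, highest) in Fibrotic livers and 0.296, 1.06 and 1.93 CPM in FLO livers. Fibrotic 4 was lowest and FLO 3 highest, and FLO 4 and FLO 5 lay within the Fibrotic range. The log2 fold change was -1.42 ± 0.48, among the furthest from 0 of the 10 and also the least precise, with an adjusted p of 0.0216 in edgeR. Without FLO 5 it was -1.61 and called (adjusted p = 0.00873 in edgeR), and without FLO 2 and FLO 3 it was -1.03 (adjusted p = 0.138).

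Myosin was represented by its heavy chain, its regulatory light chain and the kinase that activates it. Myh11 (ENSMUSG00000018830, chromosome 16), the smooth muscle myosin heavy chain, is among the most specific genes of this cell type. It was at 1.73, 4.11 and 4.61 CPM (lowest, median, highest) in Fibrotic and 4.48, 5.68 and 8.43 CPM in FLO livers. The overlap came from Fibrotic 1, which was just above FLO 1 and FLO 5, and Fibrotic 4 and Fibrotic 6 were the lowest. The log2 fold change was -0.72 ± 0.23 and missed the call (adjusted p = 0.0158 in edgeR). It was -0.54 (adjusted p = 0.0925 in edgeR) without FLO 2 and FLO 3.

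Myl9 (ENSMUSG00000067818, chromosome 2) encodes the regulatory light chain of smooth muscle myosin, the substrate of the kinase. Its level was 1.59, 2.45 and 3.44 CPM in Fibrotic and 4.54, 4.64 and 7.41 CPM in FLO livers. Every FLO library was above every Fibrotic library. Of the FLO livers, 4 lay together between 4.54 and 4.65 CPM while FLO 3 and FLO 6 were at 6.80 and 7.41 CPM. Myl9 fell 2.13-fold (log2 fold change -1.09 ± 0.21, adjusted p = 5.04e-04 in edgeR), and without FLO 3 and FLO 6 it was still called at -0.85 (adjusted p = 0.0059).

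Mylk (ENSMUSG00000022836, chromosome 16) encodes myosin light chain kinase, in a short form of smooth muscle and a long form of endothelium and other cells that a count per gene does not separate. It was at 29.2, 32.4 and 35.1 CPM in Fibrotic and 54.8, 63.2 and 71.8 CPM in FLO livers. The groups were far apart, with a coefficient of variation of 5.92% within the Fibrotic and 10.6% within the FLO group. Mylk fell 1.96-fold (log2 fold change -0.97 ± 0.08, adjusted p = 2.09e-07 in edgeR), the most precise change of the 10. FLO 3, highest for 4 of the other genes, was the lowest FLO library for Mylk.

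Tropomyosin and caldesmon lie along the actin filament and control access of myosin to it. Tpm2 (ENSMUSG00000028464, chromosome 4), beta-tropomyosin, is used in smooth and in skeletal muscle. It was at 7.10, 8.52 and 9.86 CPM in Fibrotic and 15.4, 21.6 and 39.5 CPM in FLO livers. The groups did not overlap, and the Fibrotic livers were close together while the FLO livers ranged widely. Tpm2 fell 2.78-fold (log2 fold change -1.47 ± 0.20, adjusted p = 2.92e-05 in edgeR). The libraries with skeletal muscle transcripts, FLO 2 and FLO 3, were its highest, at 26.0 and 39.5 CPM, and FLO 6 followed at 24.5 CPM. Without FLO 2 and FLO 3 the log2 fold change was -1.17 ± 0.15 (adjusted p = 3.96e-05 in edgeR), so the call did not rest on them.

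Cald1 (ENSMUSG00000029761, chromosome 6), caldesmon, is made in a heavy form in smooth muscle and a light form in many other cells, which a count per gene again does not separate. It was by far the most counted of the 10, with 2995 to 4999 counts per library. Its level was 154, 179 and 191 CPM in Fibrotic and 177, 203 and 243 CPM in FLO livers. The ranges overlapped, and the log2 fold change was -0.20 ± 0.09 (adjusted p = 0.0665 in edgeR).

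The remaining genes bind or nucleate actin. Tagln (ENSMUSG00000032085, chromosome 9), transgelin or SM22-alpha, bundles actin and is an early smooth muscle gene. It was at 8.56, 10.2 and 13.9 CPM in Fibrotic and 10.3, 15.1 and 25.7 CPM in FLO livers. FLO 6 was the highest library, and FLO 1 and FLO 5 lay within the Fibrotic range. The log2 fold change was -0.61 ± 0.20 and missed the call (adjusted p = 0.0171 in edgeR). It was called without FLO 1 (-0.71, adjusted p = 0.00445 in edgeR) and was -0.44 without FLO 6. Tagln shares 1241 exon bases with an antisense gene, Gm48529, which had 487 counts over all libraries beside 3228 for Tagln, and 108 exon bases with Pcsk7 on the opposite strand, which had 7069 counts, and whether the counting used strand is not given in the sources used here.

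Smtn (ENSMUSG00000020439, chromosome 11), smoothelin, marks fully contractile smooth muscle. It was at 5.81, 8.25 and 9.98 CPM in Fibrotic and 7.25, 8.78 and 10.8 CPM in FLO livers. The groups lay over each other, and the log2 fold change was -0.16 ± 0.14 (adjusted p = 0.347 in edgeR). Lmod1 (ENSMUSG00000048096, chromosome 1), leiomodin, starts new actin filaments in smooth muscle. It had 3 to 26 counts per library, at 0.140, 0.380 and 1.12 CPM in Fibrotic and 0.273, 0.758 and 1.11 CPM in FLO livers. Fibrotic 1 was the highest Fibrotic library and lay at the level of FLO 3, the highest FLO library. The log2 fold change was -0.72 ± 0.43 (adjusted p = 0.174 in edgeR), so at these counts a difference of this size was not told apart from the spread between livers.

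**Figure D2:**
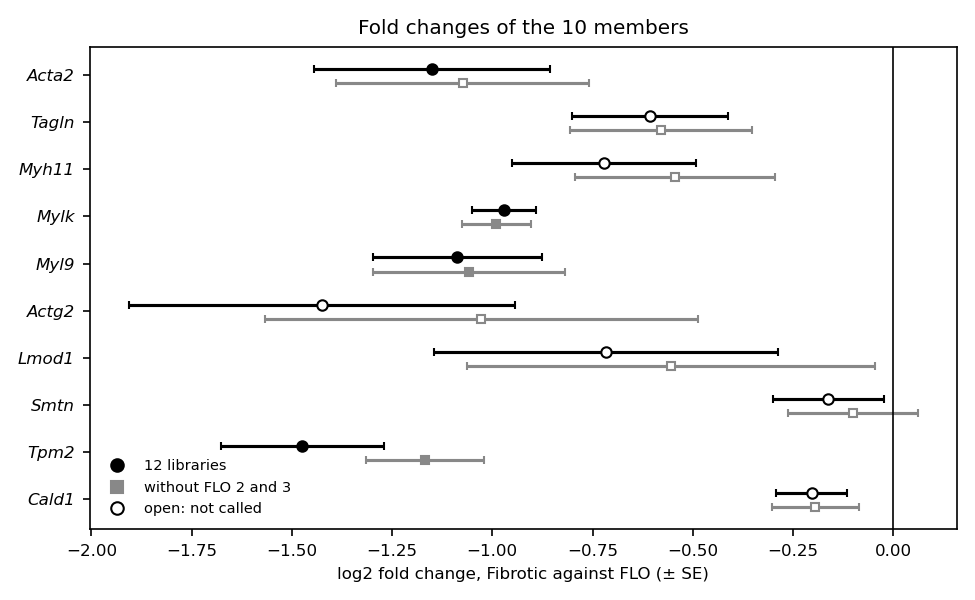
Log2 fold change of Fibrotic against FLO with its SE (horizontal axis) for each contractile smooth muscle gene, from all 12 libraries (black circles) and without FLO 2 and FLO 3 (gray squares); filled symbols are called and open symbols are not. Tpm2 moves from -1.47 to -1.17 and stays filled, and Acta2 moves from -1.15 to -1.07 and becomes open.

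Over the 12 libraries together, Fibrotic 4 was the lowest Fibrotic library for 8 of the 10 genes, all but Smtn and Tpm2. FLO 3 and FLO 6 were each the highest FLO library for 4 of the 10, and FLO 1 the lowest for 5. Without Fibrotic 4, Mylk, Myl9 and Tpm2 were still called, at -0.94, -0.97 and -1.43 on the log2 scale. The position of a liver within its group was shared to different degrees by the 10 genes. Deviations of log2 CPM from the group mean over 12 libraries were standardized and correlated with the mean of the other 9 genes. The correlation was 0.90 for Myh11, 0.84 for Acta2, 0.75 for Myl9, 0.72 for Lmod1, 0.67 for Tagln, 0.62 for Actg2 and 0.57 for Tpm2. It was 0.25 for Cald1, 0.06 for Smtn and -0.21 for Mylk. These values joined opposite signs within the Fibrotic and the FLO group: 0.86 and -0.17 for Cald1, -0.36 and 0.73 for Smtn, 0.67 and -0.67 for Mylk. Of the 45 pairs, 36 had a positive correlation, with a median of 0.33 and a highest value of 0.90 for Acta2 with Tagln. These correlations are descriptions over libraries that share depth, scaling and, in FLO 3, several features that stand apart.

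Levels were set side by side per kilobase of exon (CPM per kilobase). In FLO livers the order was Cald1 at 16.9 ± 1.93, Tagln at 8.26 ± 2.72, Tpm2 at 8.13 ± 3.02, Mylk at 5.62 ± 0.60, Myl9 at 4.67 ± 1.13, Acta2 at 4.12 ± 1.88, Smtn at 2.07 ± 0.32, Myh11 at 0.768 ± 0.19, Actg2 at 0.680 ± 0.38 and Lmod1 at 0.194 ± 0.072 (SD, n = 6). Among neighbors in this order, the ranges over the FLO libraries were separate for Cald1 above Tagln and for Smtn above Myh11, and the other 7 pairs overlapped. In Fibrotic livers Cald1 was at 14.7 ± 1.12 and Tagln at 5.43 ± 1.10, Tpm2 and Mylk stood together at 2.93 ± 0.44 and 2.87 ± 0.17, and Smtn, at 1.85 ± 0.33, was level with Acta2 at 1.86 ± 0.58 CPM per kilobase. These levels depend on the length used. With the longest single transcript in place of the union of exons, Cald1, Mylk, Smtn, Tagln and Tpm2 moved by more than 1 SD in at least 1 group.

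Several of these genes have close relatives in other cells, and some of these relatives, such as Acta1 and Tpm1, are muscle genes too. Of 20 such genes 13 were tested, and 4 rose while none fell, where 15.9% of all tested genes were called higher. Actb (beta-actin) was at 780 ± 122 CPM in Fibrotic and 458 ± 28.9 in FLO livers (log2 fold change 0.77 ± 0.11, adjusted p = 2.77e-05 in edgeR). Actg1 (cytoplasmic gamma-actin) rose by 1.02 ± 0.13, Myl12b (a regulatory light chain of nonmuscle myosin) by 0.92 ± 0.08 and Tpm1 (alpha-tropomyosin) by 0.50 ± 0.13, all on the log2 scale. The first 3 were called whichever library was left out, and Tpm1, just past the limit on fold change, in 6 of the 12 fits that left out 1 library. Myh9, the main nonmuscle myosin heavy chain, was at 176 ± 13.6 CPM in Fibrotic and 172 ± 19.98 in FLO livers, with a log2 fold change of 0.03 (adjusted p = 0.768 in edgeR), and of -0.01 (adjusted p = 0.962) without FLO 2 and FLO 3. Tagln2 had a log2 fold change of 0.51 ± 0.26 (adjusted p = 0.115 in edgeR).

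Within each family, the part taken by the genes of the contractile group was computed per kilobase in each liver. A ratio of this kind shows unequal change and not which gene moved. Acta2 and Actg2 together made up 0.491 ± 0.199% of the level of Acta2, Actg2, Actb and Actg1 in Fibrotic and 1.85 ± 0.660% in FLO livers. The ranges, 0.184% to 0.712% and 1.20% to 2.82%, were separate. Myl9 made up 3.71 ± 1.32% of Myl9, Myl12a and Myl12b in Fibrotic and 11.4 ± 2.03% in FLO livers, and these ranges were separate as well. Tpm2 made up 9.10 ± 2.49% of the 4 tropomyosin genes in Fibrotic and 23.03 ± 5.48% in FLO livers. The lowest FLO value, 16.7%, was in FLO 1 and above the highest Fibrotic value of 12.8%, so the separation did not come from FLO 2 and FLO 3. The share of Myh11 among 4 class II myosin heavy chains was 2.09 ± 0.642% against 3.54 ± 1.08%, with ranges that just missed each other at 2.66% and 2.67%. Tagln made up 27.9 ± 7.73% of Tagln and Tagln2 in Fibrotic and 43.6 ± 4.67% in FLO livers, and Fibrotic 2 lay within the FLO range. Shared sequence between relatives was small: 0.326% of 50-base windows of Acta2 transcripts and 0.340% of those of Myh11 also occurred in another gene, and none of those of Myl9, Actg2, Tpm2 or Tagln did.

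**Figure D3:**
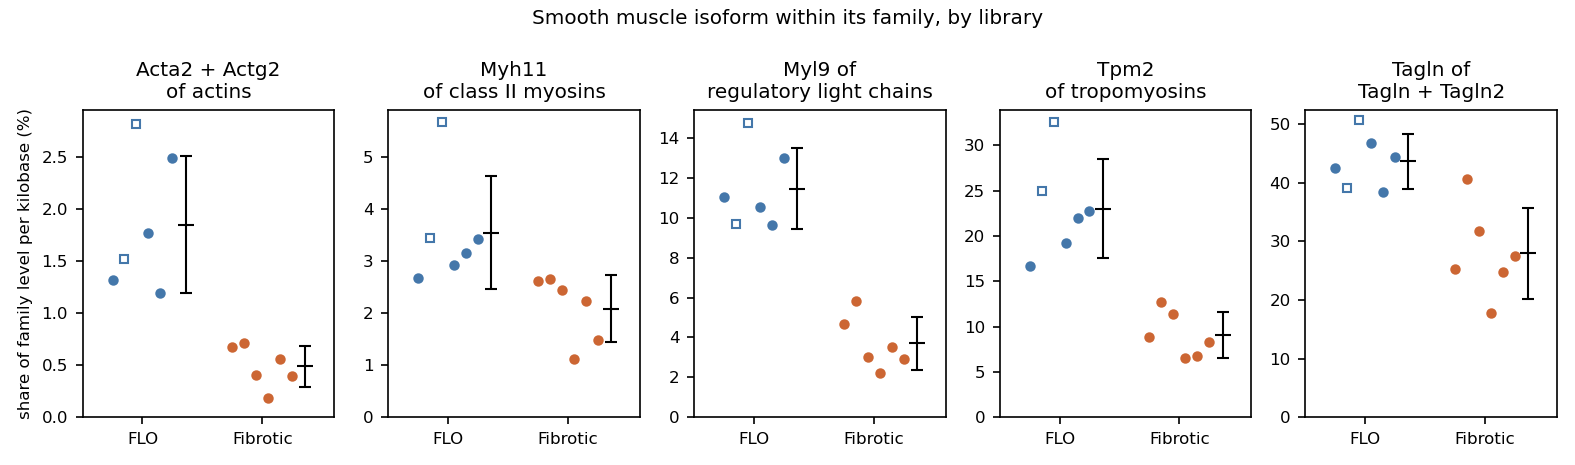
Share of the genes of the contractile group in the summed level per kilobase of their family, in percent (vertical axes, each from 0). Points are libraries of the FLO (blue) and Fibrotic (orange) groups, with FLO 2 and FLO 3 as open squares. The mean and SD are in black. The groups are separate for the actins, the regulatory light chains and the tropomyosins, touch for Myh11 (2.66% and 2.67%) and overlap for Tagln.

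Other genes of the contractile apparatus moved less by their median, though Hspb6 moved further than any gene of the contractile group. Of 20 further smooth muscle genes 15 were tested, of which 2 fell (1 without Fibrotic 4, Fibrotic 6, FLO 1, FLO 2 or FLO 4), Hspb6 among them, and none rose. This share was close to the 14.0% over all tested genes, and the median log2 fold change was -0.21. Hspb6 (HSP20, a small heat shock protein that is phosphorylated during relaxation) had 5.002 ± 0.789 CPM in Fibrotic and 15.96 ± 1.48 in FLO livers, and fell by 1.67 ± 0.12 on the log2 scale (adjusted p = 5.11e-08 in edgeR). Des (desmin, the muscle intermediate filament, also made by stellate cells) was at 22.3 CPM in FLO 3 and 12.9 in FLO 2 against 5.96 to 6.96 in the other FLO and 4.53 to 6.68 in the Fibrotic livers. Its log2 fold change of -0.80 (adjusted p = 0.0410 in edgeR) became -0.15 (adjusted p = 0.411) without FLO 2 and FLO 3. Cnn1 (calponin, a defining gene of contractile smooth muscle) was too sparse to be tested, at 0 to 8 counts in Fibrotic and 2 to 54 counts in FLO libraries, the 54 being in FLO 3. Among the genes not tested here were also Synpo2, Aoc3, Kcnmb1 and Pcp4.

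**Figure D4:**
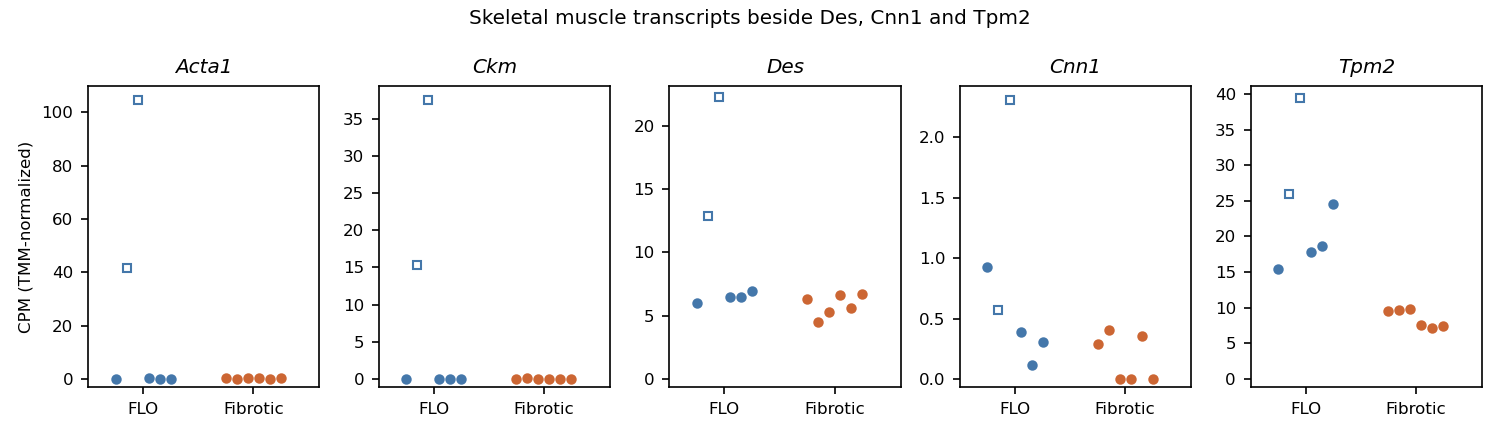
Level in CPM (vertical axes) of the skeletal muscle genes Acta1 and Ckm, of Des and Cnn1, and of Tpm2 by library in the FLO (blue) and Fibrotic (orange) groups; open squares are FLO 2 and FLO 3. Acta1 and Ckm stand above 0 in FLO 2 and FLO 3 and near 0 in the other 10 libraries, Des follows them, and Tpm2 is higher in every FLO than in every Fibrotic library.

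The genes that switch contraction on and off were called no more often than tested genes in general. Of 23 genes that control contraction, through calcium, light chain phosphatase and cyclic GMP, 22 were tested, of which 3 fell and 2 rose, beside 14.0% lower and 15.9% higher over all tested genes. The genes that fell were Adra1b, the alpha-1B adrenergic receptor that hepatocytes also use (-0.80 ± 0.15 on the log2 scale), Arhgef1, an activator of RhoA (-0.60 ± 0.06), and Rock1, a kinase that restrains the light chain phosphatase (-0.53 ± 0.09), whose call was lost without Fibrotic 3 or FLO 1. Pde5a, the phosphodiesterase that breaks down cyclic GMP, rose by 0.97 ± 0.18, and Calm2, 1 of the 3 calmodulin genes, by 0.66 ± 0.09. Rhoa, with 117 ± 6.43 CPM in Fibrotic and 153 ± 4.79 in FLO livers, had a log2 fold change of -0.39 and an adjusted p of 1.31e-04 in edgeR, short of the limit on fold change. The endothelin receptor Ednrb was at 13.6 ± 3.87 and 13.3 ± 2.10 CPM. Of 10 genes of SRF and its cofactors 9 were tested, and Mrtfa, an actin-sensing coactivator of SRF, rose by 0.50 ± 0.13 (adjusted p = 0.0042 in edgeR), a call lost without Fibrotic 1, Fibrotic 4, Fibrotic 6 or FLO 6. Srf itself had a log2 fold change of 0.34 ± 0.10 (adjusted p = 0.0114 in edgeR) and was not called. Its level ran from 16.6 to 23.7 CPM in Fibrotic livers, highest in Fibrotic 4, and from 12.7 to 15.5 CPM in FLO livers. Myocd, the muscle-specific coactivator, had 0 to 4 counts per library and was not tested.

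Markers of the cells that can hold contractile genes moved as follows, and their part in the results above was not tested. The calls stand beside 14.0% called lower and 15.9% called higher over all tested genes. Of 12 markers of pericytes and mural cells 10 were tested and none was called. Their summed level ran from 88.3 to 131 CPM in Fibrotic and from 81.8 to 117 CPM in FLO livers, and Rgs5, a gene of pericytes, was at 40.0 ± 6.92 and 41.7 ± 9.51 CPM. Of 12 stellate cell markers 11 were tested and 2 rose, among them Lrat (0.72 ± 0.21), which esterifies retinol, with a summed level of 383 to 515 CPM in Fibrotic and 348 to 433 CPM in FLO livers. Of 12 genes of portal fibroblasts and vessel wall matrix 9 were tested and 2 fell, Entpd2 (-1.43 ± 0.16) and Fbln2 (-0.62 ± 0.17), and the sums were 25.5 to 52.3 and 33.9 to 56.7 CPM. The calls of Lrat and Fbln2 were lost in 8 and in 9 of the 12 fits that left out 1 library. Eln, elastin of the vessel wall, had a log2 fold change of -0.08 (adjusted p = 0.859 in edgeR), and of 0.31 (adjusted p = 0.484) without FLO 2 and FLO 3. Of 6 mesothelial markers 4 were tested and none was called, the sums being 2.86 to 6.84 and 4.38 to 13.8 CPM with FLO 3 as the highest.

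Endothelial and other liver cell lists are given beside the 14.0% called lower and 15.9% called higher over all tested genes. All 10 endothelial genes were tested, 2 fell (Emcn by 0.72 and Kdr by 0.58 on the log2 scale), and the sum was lower in every Fibrotic (235 to 302 CPM) than in every FLO library (306 to 346 CPM). Of 6 cholangiocyte genes 4 rose, with sums of 81.7 to 278 CPM in Fibrotic and 47.1 to 88.2 CPM in FLO livers, but 2 did without Fibrotic 4, FLO 1, FLO 2, FLO 4 or FLO 5. Of 8 Kupffer cell and macrophage genes 4 rose, with sums of 137 to 260 and 113 to 131 CPM, but 2 did without FLO 6 and 1 without FLO 3 and FLO 6. Fibrotic 4 was the lowest Fibrotic library for 8 of the 10 contractile genes. It had the highest counts of Marco (629), a macrophage receptor, and Sox9 (343), a cholangiocyte transcription factor, of all 12. The macrophage sum was highest in Fibrotic 4, at 260 CPM. The cholangiocyte sum was highest in Fibrotic 5, at 278 CPM against 191 CPM in Fibrotic 4. Of 8 hepatocyte genes 1 rose and 2 fell, with sums of 54661 to 87852 and 75216 to 90243 CPM. Of the 16 skeletal and heart muscle genes 4 were tested. Neb (nebulin) was called lower at -1.70, and at -1.08 (adjusted p = 0.0131 in edgeR) without FLO 2 and FLO 3 it was not. The heart myosin gene Myh6 had 24 to 153 counts in every Fibrotic library and 0 in every FLO library.

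**Figure D5:**
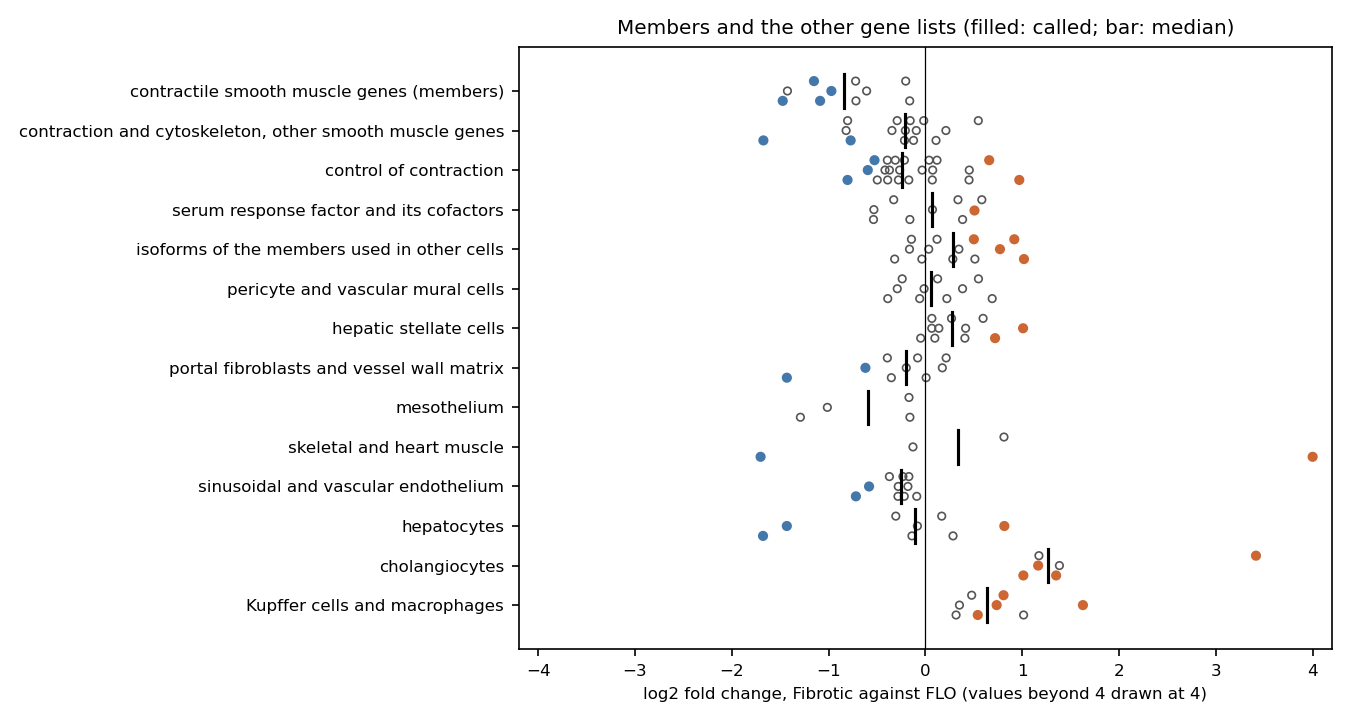
Log2 fold change of Fibrotic against FLO (horizontal axis, values beyond 4 drawn at 4) for each tested gene of the contractile smooth muscle group and of 13 other lists (rows); filled points are called, blue lower and orange higher, open points are not called, and the bar is the median. The contractile group has the lowest median, -0.85, and the list of relatives has 4 genes called higher and none lower.

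The genes whose level followed the contractile group most closely among livers of one group were ranked by correlation. Their deviations from the group mean were set against the mean standardized deviation of the 10 genes, over 12 libraries and 11197 genes. The highest of so many correlations over 12 libraries can be large with no relation behind them, and no test was made. The top 10 were Ctu2, Rpl10a-ps1, Dazap1, Mfsd13a, Lsm7, Sigirr, Dusp28, H2-K2, Ppp6r2 and Ypel2, with correlations from 0.83 to 0.88. Their differences between the groups were not alike. Ppp6r2 (-0.76 ± 0.09) and Dusp28 (-0.54 ± 0.11) fell on the log2 scale, Mfsd13a rose by 0.82 ± 0.11, and the other 7 were not called.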

How the data were processed

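Whole-liver RNA of 12 ob/ob mice (6 Fibrotic, 6 FLO; groups from the sample titles) was measured by poly(A) RNA-Seq. The authors deposited raw read counts for each Ensembl gene, not normalized. The submitters' processing notes name bcl2fastq, STAR 2.7.3a and mm10; the mouse annotation and the strand setting of the counting are not given in the sources used here. Of 56205 identifiers, 51745 matched a symbol, and where several shared a symbol (67 symbols) the identifier with most counts was used. Exon lengths and positions came from GENCODE M21 (GRCm38) and promoters from RefSeq (GRCm38.p6).

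The fit was the edgeR 4.0.16 quasi-likelihood test (robust, TMM, filterByExpr, R 4.3.3) over 13416 genes, with Benjamini-Hochberg adjustment and a gene was called where its adjusted p was at most 0.01 and its log2 fold change was beyond 0.5 in size. The SE is the absolute log2 fold change divided by the square root of F. Log2 CPM used a prior count of 2. The gene list, the 13 comparison lists (163 genes) and the tests were chosen with earlier results of these data known. Genes named were the 10 members, up to 4 called genes per list by fold change, relatives or partners of a member, and the 10 genes of most similar pattern (mean log2 CPM of at least 1). Outside that rule, Alb, Ckm, Cnn1, Des, Ednrb, Eln, Myocd, Rgs5, Rhoa, Srf, Xist, Ddx3y and the untested genes were named after their values were seen. Replicates are different mice, and within groups every pair of libraries differed by more than sampling noise (smallest chi-square per degree of freedom 11.1). Same-numbered libraries of the groups did not pair (correlations of deviations -0.16 to 0.10). The fit was tested on simulated data. Alternatives were other scaling (RLE, upper quartile, TMM leaving out the 50 most counted genes), other filters (none, or 10 counts or more in all libraries), other tools (DESeq2 1.42.0, limma-voom of limma 3.58.1, edgeR without robust fitting), a replicate block, an adjusted p of 0.05 with no fold change limit, leaving out each library, another transcript length and, added after seeing the data, leaving out FLO 2 and 3 or FLO 3 and 6. Some results for single genes of the comparison lists are not reported here. An exact test planned for members below the filter was not needed.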

Additional observations from a re-analysis of the deposited data

Results flagged for a closer look

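A highest or lowest library was singled out by its distance to the next library as a fraction of the whole range of its 6 livers, for the contractile smooth muscle genes and the other genes and shares named. Of 153 such ratios, 10 exceeded the 95% critical value of Dixon's test, where 1 in 20 would be about 7.65. Among the genes behind these 10, Cnn1, Eln, Srf, Xist and Ddx3y were named after their values were seen. The expected number does not strictly hold for ratios chosen in this way. None of the 20 ratios of the contractile smooth muscle genes themselves exceeded the critical value.

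FLO 3 accounted for 6 of the 10. It was the highest FLO library for Cnn1 (0.630), Eln (0.705), Xist (1) and the share of Myh11 among class II myosin heavy chains (0.745), and the lowest for Arhgef1 (0.716) and Ddx3y (0.693). Fibrotic 4 was the highest Fibrotic library for Srf (0.928), Marco (0.826) and Sox9 (0.652). FLO 6 was the highest FLO library for Myl12a (0.672).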

How the results depend on the processing

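None of the 10 contractile smooth muscle genes turned in direction under the 24 alternatives in which it had a value; the fold changes of list genes were followed only without FLO 2 and 3, where, among the genes named, Eln and Myh9, neither called, changed sign. Mylk, Myl9 and Tpm2 were called in all 24, with log2 fold changes from -1.06 to -0.93, from -1.19 to -0.85 and from -1.57 to -1.17. Acta2 was called in 15 of 24 (-1.28 to -0.69); besides the libraries named in the report it was lost with no low-count filter (adjusted p = 0.0139 in edgeR) and with the replicate block (-1.09, adjusted p = 0.0283). Tagln was called with DESeq2 (adjusted p = 0.00627) and Myh11 too (0.00677). Smtn, Cald1 and Lmod1 were called in none; Lmod1 and Actg2 had no value with at least 10 counts in every sample. The number of contractile smooth muscle genes called ran from 3 to 7, with 6 by DESeq2 and 7 at an adjusted p of 0.05 with no fold change limit, where 6994 of all genes and 58 genes of the 13 lists were called against 4012 and 31. Leaving out 1 library at a time gave 3 to 5 of the 10 genes, 3798 to 4093 of all genes and 23 to 33 genes of the lists. The replicate block gave 3 of the 10 genes, 3780 of all genes and 25 of the lists; the groups share only replicate numbers and not animals. The counts of single lists moved by over 1.5 times in 62 of 312 cases, and of the 31 list genes called, 21 were called whichever library was left out. With the longest transcript as length, 8 of 20 levels per kilobase moved by more than 1 SD, and in FLO livers Tpm2 came before Tagln. For genes of few counts, Actg2 and Lmod1, depth limits what can be told apart.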
